A study of Homo sapiens with 66 samples.

Results

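The IKZF zinc finger factors, BCL11A and SATB1 were followed in 66 libraries of KBM7 cells, a human chronic myeloid leukaemia line, as 5 of the 13331 genes of the deposited count table. The 5 genes IKZF1, IKZF2, IKZF5, BCL11A and SATB1 were chosen by symbol on their fold changes, seen in earlier results of these data, under degradation of Mediator subunits, CDK9 or BET proteins. Those fold changes are therefore given as a description, and no p-value is printed for them. All 5 genes had a row and passed the filter on low counts.

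Transcripts were read by 3' mRNA sequencing (Quant-seq), which counts the polyadenylated ends of transcripts. In 9 engineered KBM7 lines 1 endogenous protein each carries a dTAG, a tag that lets the small molecule dTAG7 recruit the protein to the cell's degradation machinery. These were MED14-dTAG (the scaffold subunit of the Mediator complex), MED10-dTAG, MED31-dTAG and MED1-dTAG (middle module), MED6-dTAG and MED28-dTAG (head module), MED12-dTAG (kinase module), MED26-dTAG and CDK9-dTAG, CDK9 being the kinase that releases paused RNA polymerase II. Each tagged line received 500 nM dTAG7 or DMSO for 6 h. Wild-type KBM7 cells received 500 nM dTAG7, 100 nM dBET6 (a degrader of BET bromodomain proteins), 250 nM THAL-SNS-032 (a degrader of CDK9) or DMSO for 6 h. Every one of the 22 groups had 3 libraries, from triplicate wells lettered A, B and C, so the spread between libraries may be technical. The labels do not say whether a tagged line is 1 clone, and RNA alone was measured, so protein levels of the 5 factors are unknown here.

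IKZF1 (Ikaros), IKZF2 (Helios) and IKZF5 (Pegasus) are zinc finger proteins that bind DNA through one set of fingers and pair with each other through another. Ikaros is required for lymphoid development, and Helios is known from regulatory T cells and haematopoietic stem cells. BCL11A, also a zinc finger protein, silences the fetal globin genes in adult erythroid cells and is needed for B cells. SATB1 binds AT-rich DNA, organises chromatin loops and is needed for T cell development. Several of these factors repress genes together with the NuRD chromatin remodelling complex. Mediator joins transcription factors at enhancers to RNA polymerase II at promoters, and BET proteins and CDK9 act in the release of the polymerase into elongation.

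On hg38 (GENCODE 29), IKZF1 (ENSG00000185811) lies on the plus strand of chromosome 7, from 50304068 to 50405101. IKZF2 (ENSG00000030419) lies on the minus strand of chromosome 2, from 212999691 to 213152427, and BCL11A (ENSG00000119866) on the minus strand of the same chromosome, from 60450520 to 60555154. IKZF5 (ENSG00000095574) spans 122990806 to 123008817 on the minus strand of chromosome 10, and SATB1 (ENSG00000182568) spans 18345387 to 18445588 on the minus strand of chromosome 3. SATB1 had the pattern most like that of IKZF2 over the 22 groups (Pearson's r of 0.92). Over the 19 groups without CDK9 loss, dBET6 and THAL-SNS-032 it was 0.95, with TCF3 at 0.96. The 250 bases before the outermost RefSeq start of IKZF2 and of SATB1 are shown, 5′ to 3′ on the gene's strand (RefSeq, GRCh38.p14). Neither window holds an annotated exon, while those of IKZF1, IKZF5 and BCL11A do and are not shown. Capitals mark AACNG, the core recognised by MYB, found on either strand.
IKZF2, chr2:213152457-213152706: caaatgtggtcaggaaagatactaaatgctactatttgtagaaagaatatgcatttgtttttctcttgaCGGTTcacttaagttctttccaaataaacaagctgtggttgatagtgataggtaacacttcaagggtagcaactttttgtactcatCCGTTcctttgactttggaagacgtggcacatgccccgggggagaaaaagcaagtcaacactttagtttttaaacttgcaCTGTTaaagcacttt
SATB1, chr3:18445593-18445842: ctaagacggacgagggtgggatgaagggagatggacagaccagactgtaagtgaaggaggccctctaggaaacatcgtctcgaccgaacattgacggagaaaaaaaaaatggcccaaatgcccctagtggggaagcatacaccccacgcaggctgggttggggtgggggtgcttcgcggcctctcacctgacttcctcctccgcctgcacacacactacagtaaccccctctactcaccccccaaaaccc
The IKZF2 window had 38% G and C and 3 matches to AACNG, all read on the opposite strand, while 70.6% of 35116 promoter windows of the same length held at least 1 such match. The SATB1 window had 57.2% G and C and no match. Neither window held AGATAA (in 9.17% of all windows) or TGATAA (6.66%), both bound by GATA factors, the E-box CACGTG (6.34%), the CCAAT box (CCAAT, 32%), the GC box (GGGCGG, 42.6%) or the TATA box (TATAAA, 10.7%), each searched on both strands. These searches describe letters, and 3' reads do not show which start a transcript used.

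Libraries held between 439261 and 4337368 counts of human genes and between 10950 and 72684 counts of spike-in RNA, which had been added to each lysate in equal amounts. Library-scaled counts (CPM) given here are on the spike-in scale, where each library is scaled by its spike-in total, so that a loss of most transcripts in a cell is seen as a loss. A second scale, TMM, sets the bulk of genes equal between libraries. Over the 66 libraries the counts ran from 11 to 253 for IKZF1, from 28 to 810 for IKZF2, from 2 to 114 for IKZF5, from 13 to 739 for BCL11A and from 32 to 919 for SATB1, so IKZF5 is the least precisely measured. A log2 fold change is called where edgeR's quasi-likelihood test gave a Benjamini-Hochberg adjusted p under 0.05 over all 12515 genes tested (12892 on the TMM scale). Library A of dTAG7-treated MED6-dTAG cells stood apart from its replicates (chi-square per degree of freedom over genes of 18.5 and 14.8 against libraries B and C), as did library B of DMSO-treated MED12-dTAG cells (8.63 and 8.46 against A and C). Library C of dTAG7-treated MED12-dTAG cells did so less (4.90 and 5.97), as did library A of dTAG7-treated (4.49 and 3.73) and of DMSO-treated MED31-dTAG cells (4.38 and 3.93) and library A of DMSO-treated MED26-dTAG cells (4.34 and 4.19). Libraries B and C with dBET6 (5.26) and with THAL-SNS-032 (4.62) also differed from each other. Values without these libraries are given beside the calls that changed without them.

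IKZF1, IKZF2, BCL11A and SATB1 were lower after the loss of several Mediator subunits, and IKZF5 was called in 1 Mediator line. Over the 60 fold changes (5 genes in 12 comparisons with DMSO of the same line), 38 were called lower, 0 higher and 22 were not called. Without adjustment 46 were lower and 0 higher at p under 0.05. DESeq2 called 39 lower and 0 higher, and limma, run on the authors' loess-normalized values, 35 lower and 0 higher. No share of all genes was taken at the unadjusted threshold, so unadjusted counts here and below have no background beside them. The DESeq2 and limma totals over the 60 fold changes also stand without a share of all genes. On the TMM scale 36 were called lower, 34 of them also on the spike-in scale. SATB1 was called lower in 10 of the 12 comparisons, BCL11A in 9, IKZF2 in 8, IKZF1 in 7 and IKZF5 in 4. In bulk samples, fewer cells with a transcript and less transcript per cell cannot be told apart.

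Set beside all genes, the calls read as follows, as a description of fold changes that the listing used. In MED14-dTAG cells 5 of 5 were called lower, where 63.3% of all genes were (4 of 5 and 16.6% on TMM). In MED10-dTAG cells it was 4 of 5 beside 19% (TMM 3 of 5 and 10%), and in MED6-dTAG cells 4 of 5 beside 18.4% (TMM 4 of 5 and 3.66%). In MED28-dTAG cells it was 3 of 5 beside 4.07% (TMM 4 of 5 and 4.34%), and in MED31-dTAG cells 3 of 5 beside 2.61% (TMM 3 of 5 and 3.02%). In MED12-dTAG cells it was 2 of 5 beside 3.4% (TMM 2 of 5 and 5.7%), and in MED26-dTAG cells 2 of 5 beside 2.88% (TMM 2 of 5 and 1.4%). In MED1-dTAG cells edgeR called 0 of 5 beside 0% (TMM 1 of 5 and 0.00776%). DESeq2 and limma also called 0 there. An unadjusted edgeR p under 0.05 was found for 3 of 5, without a share of all genes at that threshold. Dropping the call and asking only for libraries that did not overlap gave 31 of the 40 Mediator fold changes, among them all 8 of BCL11A and of SATB1, 7 of IKZF2, 6 of IKZF1 and 2 of IKZF5. Treated libraries lay all below their DMSO libraries for 68.2% of all genes in MED14-dTAG, 33.9% in MED10-dTAG, 17.4% in MED28-dTAG, 30.9% in MED6-dTAG, 8.25% in MED12-dTAG, 24.1% in MED26-dTAG, 15.8% in MED31-dTAG and 5.3% in MED1-dTAG cells.

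IKZF2 was lower than DMSO after loss of MED14, MED10, MED28, MED6 and MED31. In MED14-dTAG cells it had 31.9, 42.7 and 37.9 CPM with dTAG7, against 146, 184 and 175 CPM with DMSO, a log2 fold change of -2.20 ± 0.18 (SE) that left 21.8% of the DMSO level. In MED10-dTAG cells the values were 68.2, 73.1 and 63.5 CPM with dTAG7 and 234, 282 and 242 CPM with DMSO (-1.90 ± 0.17). All dTAG7 libraries of both lines were below all DMSO libraries. In MED28-dTAG cells it had 112, 109 and 107 CPM with dTAG7, against 348, 242 and 278 CPM with DMSO (-1.40 ± 0.16).

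In MED6-dTAG cells IKZF2 had 72.1, 138 and 136 CPM with dTAG7, against 301, 278 and 255 CPM with DMSO (-1.28 ± 0.16). Library A, the one that stood apart, was the low one of the 3, and without it the log2 fold change was -1.01 ± 0.16 and still called. In MED31-dTAG cells the gene had 116, 143 and 142 CPM with dTAG7 and 251, 191 and 184 CPM with DMSO (-0.64 ± 0.16), a call lost without library A of either group (-0.55 without the dTAG7 library, -0.49 without the DMSO one). The groups did not overlap in MED26-dTAG or MED1-dTAG cells either, where the log2 fold changes of -0.48 ± 0.16 and -0.47 ± 0.16 were not called. In MED12-dTAG cells IKZF2 had 108, 115 and 108 CPM with dTAG7, against 177, 89.4 and 156 CPM with DMSO, and these groups overlapped (-0.35 ± 0.17, not called). Its low DMSO value was that of library B, and without that library the log2 fold change was -0.59 ± 0.16 and called.

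**Figure D1:**
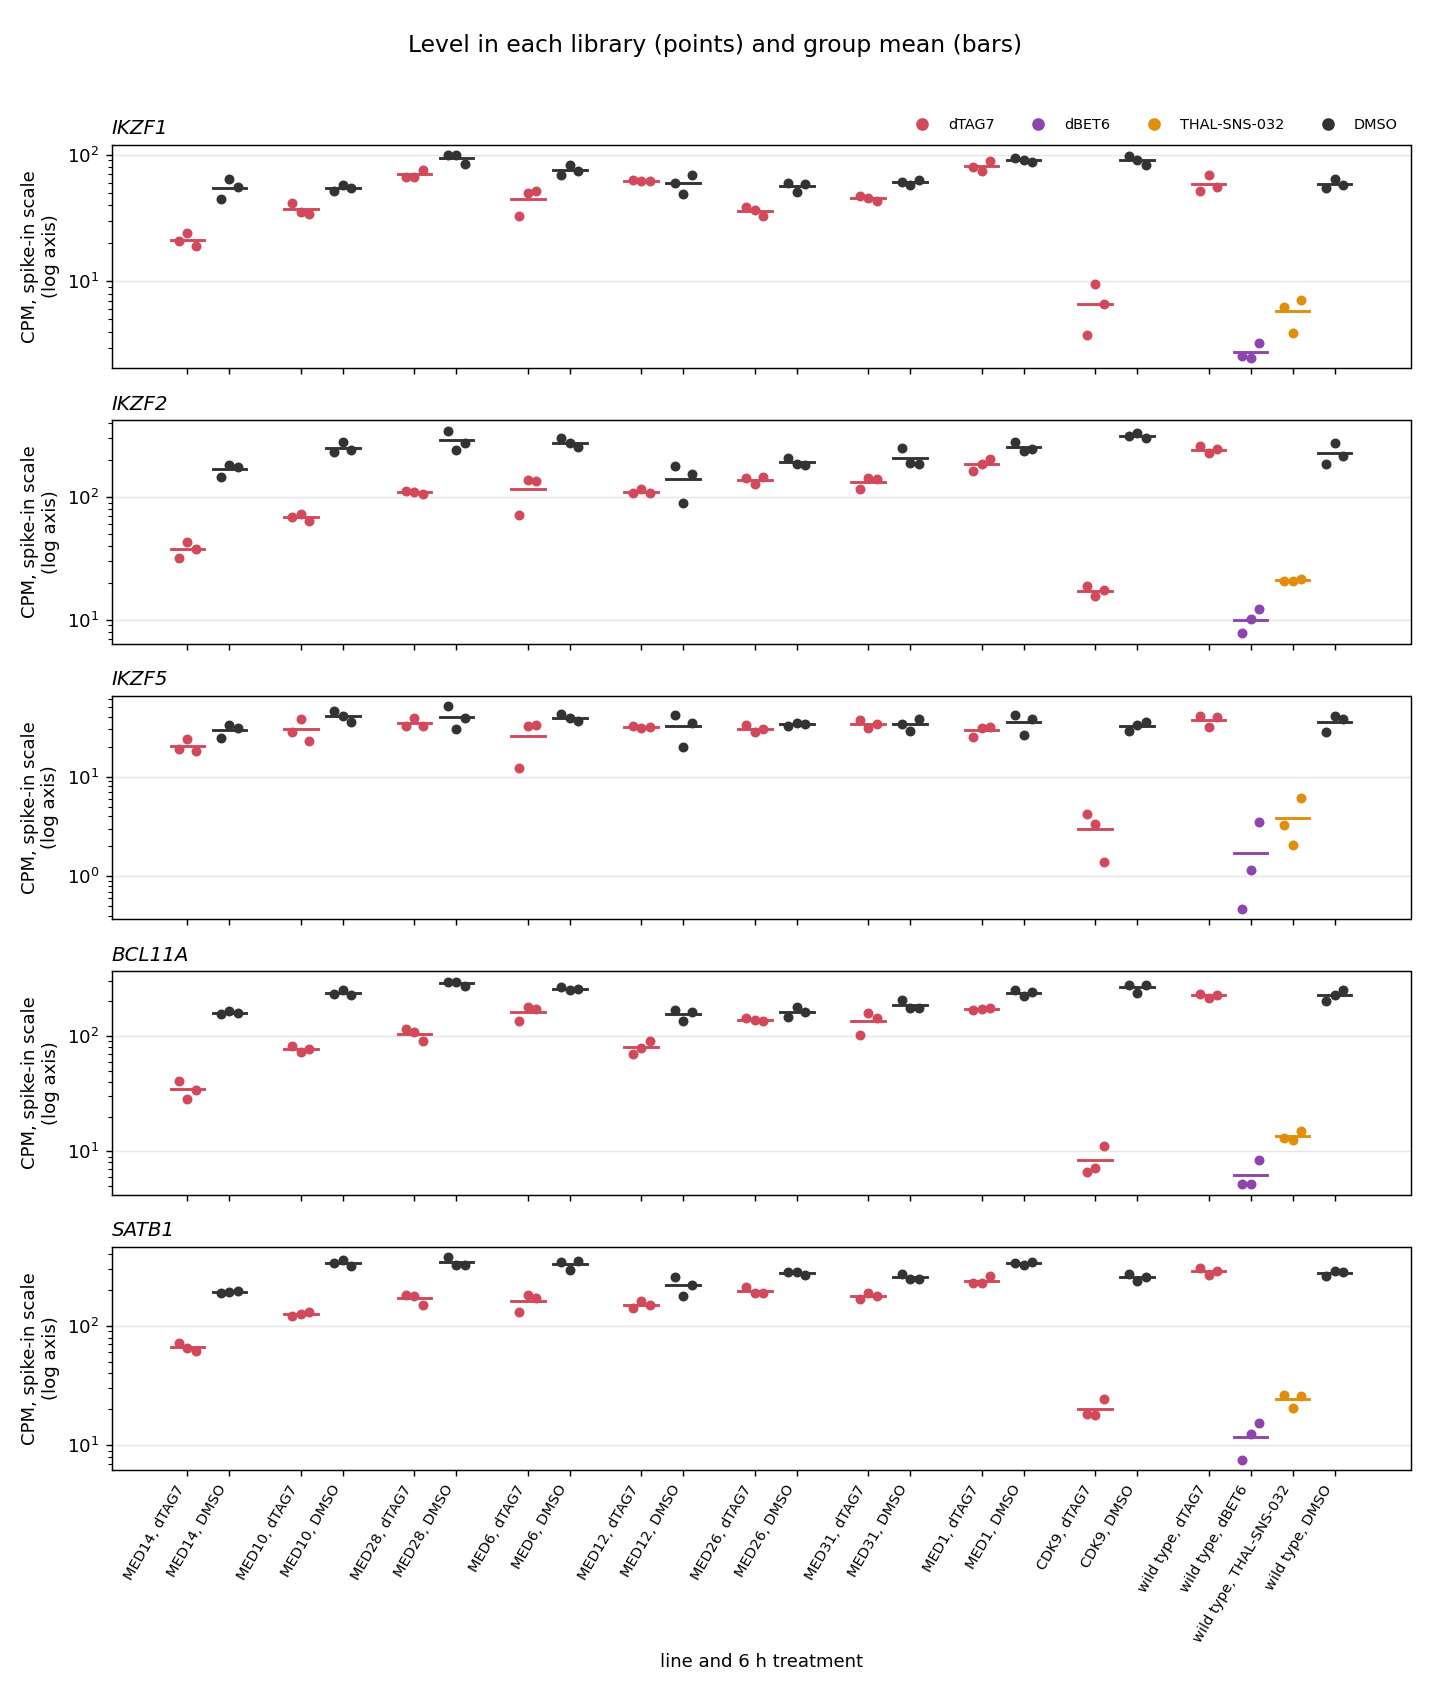
Level of the 5 genes in each of the 66 libraries, in CPM on the spike-in scale (log axis), with treated groups left of DMSO in each line. Points are libraries and bars are group means of 3; the drop of IKZF2, BCL11A and SATB1 in the MED14, MED10 and MED28 lines, and of all 5 genes with CDK9 loss, dBET6 and THAL-SNS-032, separates treated from DMSO points.

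The log2 fold changes of IKZF1 lay nearer 0 than those of IKZF2 in every Mediator line except MED26-dTAG. It had 20.7, 23.9 and 18.9 CPM with dTAG7 in MED14-dTAG cells, against 44.5, 63.6 and 55.5 CPM with DMSO (-1.39 ± 0.17, leaving 38.2%). The groups did not overlap. It was called lower as well after loss of MED6 (32.5, 49.9 and 51.6 CPM with dTAG7, against 68.6, 81.9 and 74.6 CPM with DMSO; -0.77 ± 0.15, or -0.57 ± 0.16 without library A of the dTAG7 group). In MED26-dTAG cells it had 38.9, 36.6 and 32.4 CPM with dTAG7, against 59.2, 50.9 and 58.0 CPM with DMSO (-0.63 ± 0.16). In MED10-dTAG cells it had 41.5, 35.3 and 33.9 CPM with dTAG7, against 51.2, 57.3 and 54.7 CPM with DMSO (-0.57 ± 0.16). The MED26 call was lost without DMSO library A (-0.59) or C (-0.60) or dTAG7 library C (-0.57), and the MED10 call without dTAG7 library C (-0.50). In MED28-dTAG and MED31-dTAG cells the log2 fold changes were -0.43 ± 0.14 and -0.41 ± 0.15 with groups that did not overlap and no call. With TMM the MED28 value was called (-0.39 ± 0.12) and the MED10 value was not (-0.36 ± 0.14). In MED12-dTAG cells it had 62.7, 61.9 and 62.1 CPM with dTAG7, against 60.02, 48.9 and 68.7 CPM with DMSO. The fold change was 0.07 ± 0.15 and the groups overlapped. Without DMSO library B the fold change was -0.05 ± 0.16 and not called.

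IKZF5, a more distant member of the family, was called lower in 1 of the 8 Mediator lines, and only on the spike-in scale. In MED14-dTAG cells it had 18.9, 23.9 and 18.3 CPM with dTAG7, against 24.5, 33.0 and 31.3 CPM with DMSO (-0.58 ± 0.26, called). All genes tested had a median log2 fold change of -0.69 in that comparison, and on the TMM scale, which removes that shift, the fold change of IKZF5 was 0.11 ± 0.21 and not called. The call was also lost without DMSO library B (-0.49) or C (-0.54) or dTAG7 library A (-0.53) or C (-0.51). In the other 7 Mediator lines no fold change of IKZF5 was called, and the values lay between -0.63 ± 0.25 in MED6-dTAG cells and 0.02 ± 0.24 in MED31-dTAG cells. The MED6 value rested on library A, which had 12.2 CPM with dTAG7 where libraries B and C had 32.3 and 33.1 CPM, against 42.4, 39.4 and 36.3 CPM with DMSO. Without library A it was -0.26 ± 0.24, and without B or C it was -0.86 or -0.84 and called.

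BCL11A was called lower in 6 of the 8 Mediator lines. In MED14-dTAG cells it had 41.0, 28.5 and 34.3 CPM with dTAG7, against 154, 166 and 158 CPM with DMSO (-2.17 ± 0.14, leaving 22.3%). In MED10-dTAG cells it had 81.1, 73.1 and 76.7 CPM with dTAG7, against 229, 250 and 226 CPM with DMSO (-1.61 ± 0.13). In MED28-dTAG cells it had 115, 107 and 91.1 CPM with dTAG7, against 292, 296 and 274 CPM with DMSO (-1.46 ± 0.13). Treated and DMSO libraries stood well apart in all 3 lines. In MED12-dTAG cells, where BCL11A had the lowest log2 fold change of the 5 genes, it had 70.0, 79.0 and 91.0 CPM with dTAG7, against 168, 135 and 162 CPM with DMSO (-0.94 ± 0.13, leaving 52.3%). This fold change was -1.03 ± 0.14 without DMSO library B and -1.05 ± 0.15 without dTAG7 library C. In MED6-dTAG cells it had 135, 179 and 172 CPM with dTAG7, against 266, 252 and 255 CPM with DMSO (-0.67 ± 0.12, and -0.55 ± 0.13 without library A of the dTAG7 group).

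In MED31-dTAG cells BCL11A had 103, 158 and 142 CPM with dTAG7, against 205, 174 and 176 CPM with DMSO (-0.46 ± 0.12). As for IKZF2, dTAG7 library A was the low and DMSO library A the high one, and the call was lost without the dTAG7 one (-0.31) or the DMSO one (-0.38). In MED1-dTAG cells it had 169, 171 and 174 CPM with dTAG7, against 249, 221 and 241 CPM with DMSO, groups that did not overlap with a fold change of -0.47 ± 0.12 that was not called. In MED26-dTAG cells it had 144, 136 and 133 CPM with dTAG7, against 146, 178 and 160 CPM with DMSO (-0.23 ± 0.13, not called). The groups there lay next to each other without overlap.

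SATB1 was called lower in 7 of the 8 Mediator lines on the spike-in scale and in all 8 on the TMM scale. In MED14-dTAG cells it had 71.8, 65.3 and 61.7 CPM with dTAG7, against 191, 194 and 199 CPM with DMSO (-1.55 ± 0.13, leaving 34.2%). In MED10-dTAG cells it had 122, 127 and 131 CPM with dTAG7, against 338, 355 and 321 CPM with DMSO (-1.41 ± 0.12). Replicates lay close together and far from the other group in both lines. In MED6-dTAG cells it had 130, 184 and 170 CPM with dTAG7, against 343, 295 and 354 CPM with DMSO (-1.04 ± 0.12, and -0.90 ± 0.13 without library A of the dTAG7 group). In MED28-dTAG cells it had 182, 178 and 151 CPM with dTAG7, against 379, 323 and 324 CPM with DMSO (-1.01 ± 0.12).

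In the remaining Mediator lines the fold changes of SATB1 were nearly equal: -0.53 ± 0.12 in MED12-dTAG, -0.53 ± 0.12 in MED31-dTAG, -0.50 ± 0.12 in MED26-dTAG and -0.48 ± 0.12 in MED1-dTAG cells, with no overlap between treated and DMSO libraries in any of them. The MED12 call was lost without DMSO library A (-0.40), and the MED26 call without dTAG7 library C (-0.47). Without DMSO library B the MED12 value was -0.66 ± 0.13 and called. In MED1-dTAG cells SATB1 had 232, 229 and 262 CPM with dTAG7, against 338, 324 and 347 CPM with DMSO. That comparison called no gene on the spike-in scale, and on the TMM scale it called a single gene of 12892, which was SATB1 (-0.49 ± 0.08).

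**Figure D2:**
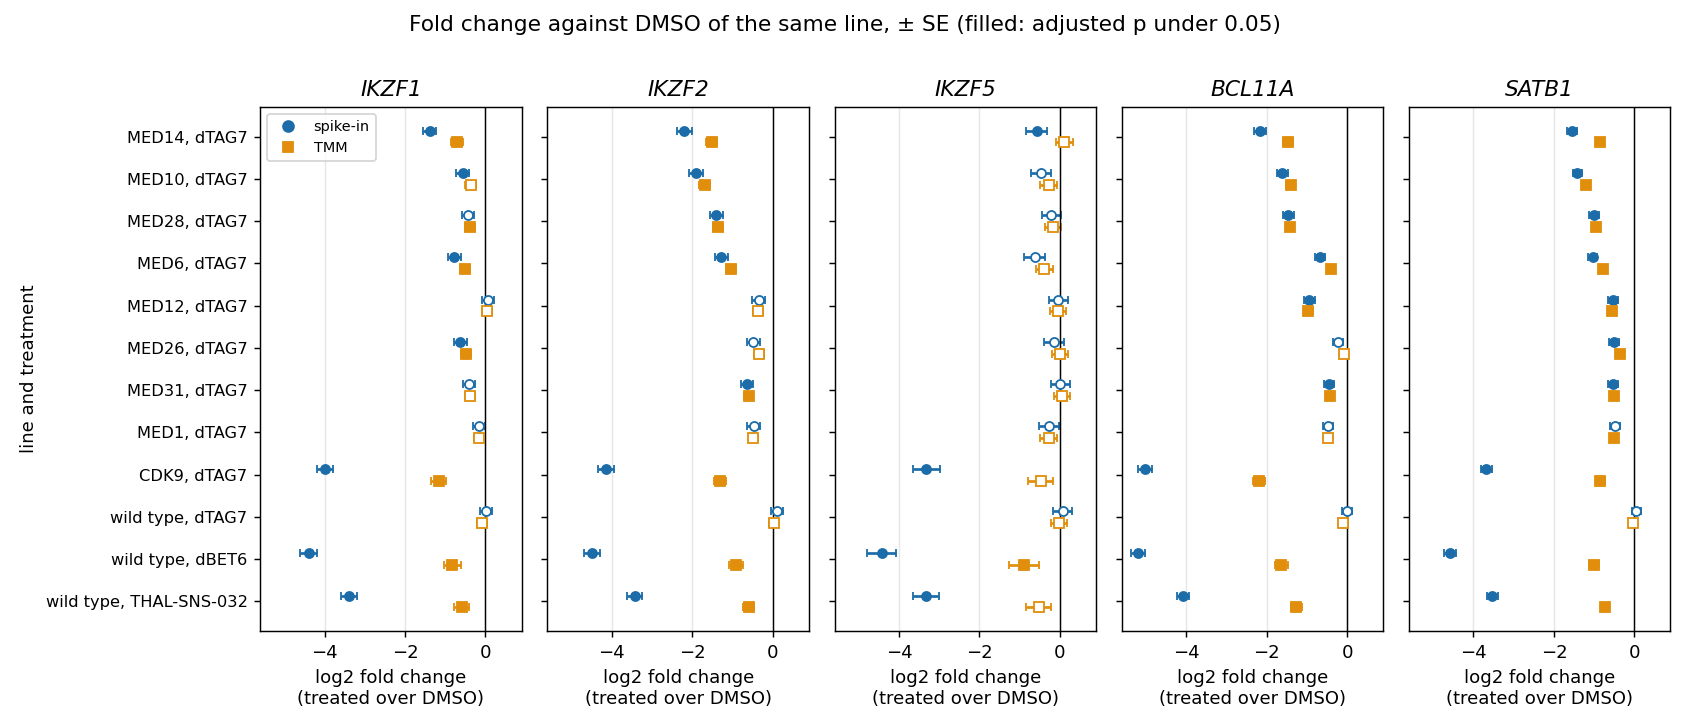
Log2 fold change of each gene (treated over DMSO of the same line, ± SE) in the 12 comparisons, on the spike-in scale (circles) and on the TMM scale (squares), with called values filled. IKZF2 and BCL11A reach -2.20 and -2.17 in the MED14 line on the spike-in scale, and IKZF5 lies between -0.38 (MED6) and 0.11 (MED14) on the TMM scale in the Mediator lines, with none called.

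Ranked among all genes, IKZF2, BCL11A and SATB1 were far down in most Mediator lines. The share of genes below SATB1 ran from 1.57% in MED28-dTAG to 10.7% in MED26-dTAG cells. In MED28-dTAG cells 0.471% of genes had a lower fold change than BCL11A and 0.543% a lower one than IKZF2. In MED10-dTAG cells 0.559% lay below IKZF2, 1.05% below BCL11A and 1.64% below SATB1. The order changed between lines. In MED12-dTAG cells 1.65% of genes lay below BCL11A, but 11.6% below IKZF2 and 52.1% below IKZF1, and in MED6-dTAG cells 1.62% lay below IKZF2 and 11.7% below BCL11A. In MED26-dTAG cells IKZF1 was the lowest of the 5 (6.26% of genes below it), with BCL11A at 36.2%. IKZF5 lay near the middle in MED14-dTAG (58.9% of genes below), MED31-dTAG (58.4%) and MED26-dTAG cells (50.6%).

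**Figure D3:**
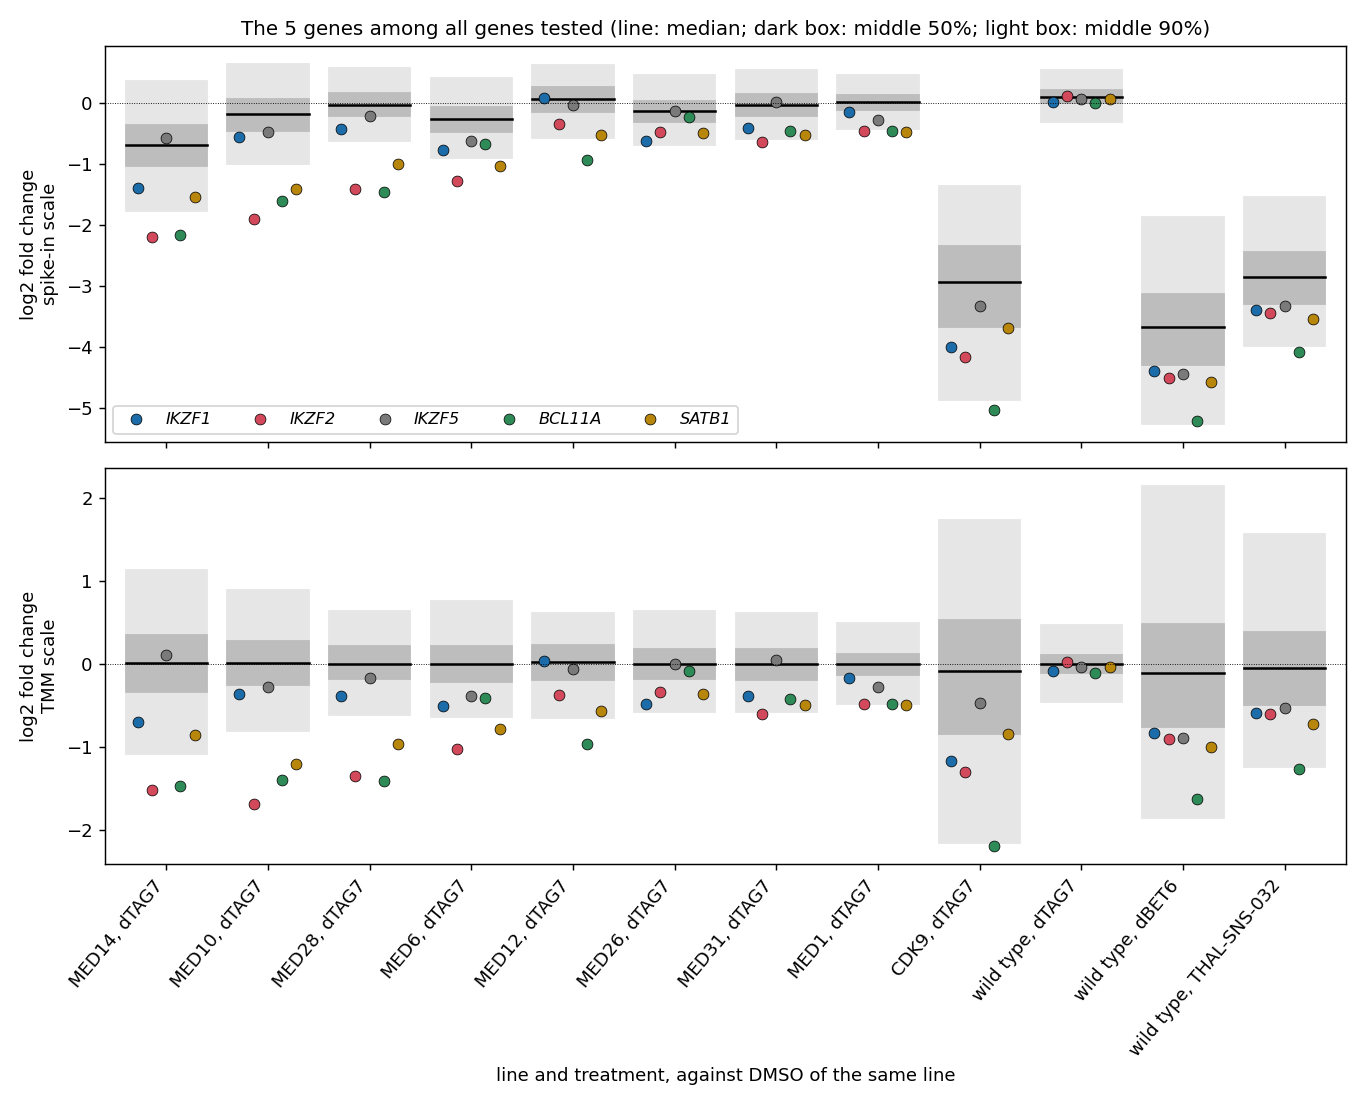
Log2 fold changes of the 5 genes (coloured points) against the spread over all genes tested in each of the 12 comparisons, on the spike-in scale (above) and the TMM scale (below). The median line lies at -0.69 in the MED14 line and at -3.67 with dBET6 on the spike-in scale; IKZF2 and BCL11A fall below the middle 90% of genes in the MED14, MED10 and MED28 lines on both scales.

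Loss of CDK9, dBET6 and THAL-SNS-032 lowered nearly all transcripts, and all 5 genes with them. Human RNA per spike-in was 19.2% of DMSO after CDK9 loss, 11.3% with dBET6 and 17.6% with THAL-SNS-032 (exact permutation test, two-sided, p = 0.1 each, the smallest possible with 3 against 3), and 95.3%, 97.1% and 96.2% of all genes were called lower. In CDK9-dTAG cells BCL11A had 6.66, 7.21 and 11.2 CPM with dTAG7, against 278, 236 and 277 CPM with DMSO (-5.02 ± 0.17, leaving 3.07%). IKZF2 had 18.97, 15.5 and 17.5 CPM with dTAG7, against 315, 330 and 303 CPM with DMSO (-4.15 ± 0.20). IKZF1, SATB1 and IKZF5 followed with -3.99 ± 0.20, -3.68 ± 0.15 and -3.32 ± 0.34, where all genes had a median of -2.93. On the TMM scale 4 of the 5 were still called lower (27% of all genes), from -2.19 ± 0.15 for BCL11A to -0.84 ± 0.11 for SATB1, and IKZF5 was not (-0.47 ± 0.31).

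In wild-type cells BCL11A had 5.16, 5.15 and 8.41 CPM with dBET6 and 12.9, 12.6 and 14.9 CPM with THAL-SNS-032, against 202, 227 and 249 CPM with DMSO. These are log2 fold changes of -5.20 ± 0.17 and -4.08 ± 0.15, and both comparisons share the same DMSO libraries. SATB1 had 7.50, 12.4 and 15.2 CPM with dBET6 and 26.5, 20.4 and 26.1 CPM with THAL-SNS-032, against 264, 287 and 284 CPM with DMSO (-4.58 ± 0.15 and -3.53 ± 0.14). IKZF2 had 7.73, 10.1 and 12.2 CPM with dBET6 and 20.8, 20.6 and 21.3 CPM with THAL-SNS-032, against 187, 275 and 217 CPM with DMSO (-4.50 ± 0.20 and -3.43 ± 0.19). IKZF1 (-4.39 ± 0.21 and -3.39 ± 0.19) and IKZF5 (-4.43 ± 0.36 and -3.32 ± 0.32) had folds of like size. The median over all genes was -3.67 with dBET6 and -2.86 with THAL-SNS-032, and 3.95% of genes lay below BCL11A with THAL-SNS-032 and 5.57% with dBET6. On the TMM scale all 5 were called lower with dBET6 (23.2% of all genes) and 4 with THAL-SNS-032 (16%), with BCL11A again the lowest of the 5 (-1.63 ± 0.16 and -1.26 ± 0.13). IKZF5 rested on 2, 6 and 13 counts with dBET6 and on 11, 11 and 18 counts with THAL-SNS-032. With 1 library left out, its log2 fold change ran from -5.33 to -4.01 with dBET6 and from -3.77 to -2.93 with THAL-SNS-032. On the spike-in scale all 5 genes stayed called with both compounds whichever library was left out.

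dTAG7 itself, in wild-type cells without a tag, gave no called change in any of the 5 genes. IKZF1 had 51.6, 68.6 and 55.7 CPM with dTAG7, against 54.0, 63.6 and 57.8 CPM with DMSO (0.01 ± 0.15), and IKZF2 had 259, 227 and 245 CPM with dTAG7, against 187, 275 and 217 CPM with DMSO (0.11 ± 0.16). IKZF5, BCL11A and SATB1 had log2 fold changes of 0.07 ± 0.24, -0.01 ± 0.12 and 0.05 ± 0.12, and treated and DMSO libraries overlapped for all 5. By edgeR 0 of 5 were called (0 without adjustment, 0 by DESeq2 and 0 by limma), as 0% of all genes. Subtracting this effect from that of each tagged line in one edgeR model, which again uses the fold changes the genes were chosen on and is given as a description, 20 of 45 differences were called lower and 0 higher (without adjustment 33 lower and 0 higher). All 5 genes differed in the CDK9 line (93.9% of all genes lower), 4 in the MED14 line (57.1%), 4 in the MED6 line (10.9%), 3 in the MED10 line (14.1%), 3 in the MED28 line (1.82%) and 1 in the MED12 line (1.62%). The SATB1 difference in the MED12 line was -0.59 and not called, but -0.71 and called without DMSO library B of that line. In the MED1, MED26 and MED31 lines 0 of 5 were called, where 0%, 1.31% and 0.607% of all genes were. DESeq2 called 0, 1 and 2 there, beside 0 of 13331, 425 of 6611 and 285 of 6611 genes lower by that tool. By limma 0 were called in each, beside 0, 57 and 11 of 13331 genes lower. In each of these 3 lines 3 were below an unadjusted edgeR p of 0.05, again without a share of all genes.

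The tagged lines did not all start from the wild-type level. The 9 comparisons of tagged DMSO with wild-type DMSO share the 3 wild-type libraries, and a DMSO level also enters the fold change of its line. The genes were chosen on those fold changes. Baseline differences and their adjusted p-values, here and in the next paragraph, are therefore a description and not independent evidence. Of 45 such differences 6 were called lower and 3 higher by edgeR. In MED6-dTAG, MED10-dTAG and MED31-dTAG cells edgeR called 0 of 5 (unadjusted 2, 1 and 1; DESeq2 and limma 0), beside 0.208% lower and 0.2% higher of all genes in MED6-dTAG, 0.192% and 0.128% in MED10-dTAG, and 2.29% and 6% in MED31-dTAG cells. BCL11A was called lower in MED31-dTAG cells on the TMM scale (-0.37 ± 0.10, edgeR adjusted p = 0.00772; 4.1% of all genes lower), and IKZF2 higher in CDK9-dTAG cells on that scale (0.57 ± 0.12, edgeR adjusted p = 0.0013; 1.1% of all genes higher); neither was called on the spike-in scale. IKZF1 was higher in MED28-dTAG (0.69 ± 0.15, adjusted p = 0.00482; 1.86% of all genes higher), MED1-dTAG (0.63 ± 0.15, adjusted p = 0.0174; 0.2%) and CDK9-dTAG cells (0.62 ± 0.15, adjusted p = 0.0111; 0.583%). It had 98.4, 99.1 and 84.9 CPM in MED28-dTAG, 93.1, 89.998 and 87.4 CPM in MED1-dTAG and 98.03, 90.7 and 83.1 CPM in CDK9-dTAG cells, against 54.0, 63.6 and 57.8 CPM in wild-type cells. No library of the 3 lines overlapped with wild type for IKZF1. The share of all genes without such overlap was not set beside this. Of the 5 genes, 3 lay above wild type without overlap in MED6-dTAG cells, where none was called, and 3 in MED28-dTAG cells. It was 2 in MED1-dTAG, 2 in CDK9-dTAG and 1 in MED10-dTAG cells. Below wild type without overlap lay 3 in MED12-dTAG, 3 in MED14-dTAG and 1 in MED26-dTAG cells. No share of all genes stands beside these counts either. The CDK9 call was lost without CDK9-dTAG library A (0.57) or B (0.62) or wild-type library A (0.57). The MED1 call was lost without MED1-dTAG library A (0.61) or B (0.63) or wild-type library A (0.58) or C (0.63). The MED28 difference was not called on the TMM scale (0.46 ± 0.12, edgeR adjusted p = 0.0648), where all genes had moved by a median of 0.23 on the spike-in scale.

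MED12-dTAG cells with DMSO had lower IKZF2 (-0.68 ± 0.16, edgeR adjusted p = 0.00213), BCL11A (-0.55 ± 0.12, adjusted p = 0.00101) and SATB1 (-0.34 ± 0.12, adjusted p = 0.0479) than wild-type cells, where 4.42% of all genes were lower. Part of this lay in MED12-dTAG library B, without which IKZF2 was at -0.43 ± 0.16 (edgeR adjusted p = 0.0753), SATB1 at -0.21 ± 0.12 (adjusted p = 0.339) and BCL11A at -0.46 ± 0.13 (adjusted p = 0.0171). The IKZF2 call was also lost without wild-type library B (-0.52), and the SATB1 call without MED12-dTAG library C (-0.35) or wild-type library A (-0.38), B (-0.32) or C (-0.33). BCL11A was lower too in MED14-dTAG (-0.50 ± 0.12, edgeR adjusted p = 0.00312; 8.98% of all genes lower) and MED26-dTAG cells (-0.48 ± 0.12, adjusted p = 0.0277; 0.392%), and SATB1 in MED14-dTAG cells (-0.52 ± 0.12, adjusted p = 0.0016). In MED14-dTAG cells all genes had a median of -0.19, and on the TMM scale SATB1 stayed called (-0.32 ± 0.08) and BCL11A did not (-0.31 ± 0.10, edgeR adjusted p = 0.0589), where 3.21% of all genes were lower. The MED26 call of BCL11A was lost without MED26-dTAG library A (-0.42) or C (-0.48) or wild-type library B (-0.48) or C (-0.41).

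In the order of DMSO levels over the 10 lines, neighbours mostly overlapped. IKZF1 ran from 94.1 ± 7.998 CPM in MED28-dTAG to 54.4 ± 3.06 CPM in MED10-dTAG cells (SD, n = 3 each), with wild type at 58.5 ± 4.85 CPM. Of its 9 neighbouring pairs 7 overlapped, with gaps between MED1-dTAG and MED6-dTAG and between MED6-dTAG and MED31-dTAG. IKZF2 ran from 316 ± 13.6 CPM in CDK9-dTAG to 141 ± 45.9 CPM in MED12-dTAG cells with wild type at 226 ± 44.996 CPM, and all 9 pairs overlapped. BCL11A ran from 287 ± 12.1 CPM in MED28-dTAG to 155 ± 17.7 CPM in MED12-dTAG cells, with wild type at 226 ± 23.5 CPM and 8 of 9 pairs overlapping. SATB1 ran from 342 ± 32.5 CPM in MED28-dTAG to 194 ± 3.98 CPM in MED14-dTAG cells, with wild type at 278 ± 12.2 CPM and 8 of 9 pairs overlapping. IKZF5 ran from 40.9 ± 5.28 CPM in MED10-dTAG to 29.6 ± 4.52 CPM in MED14-dTAG cells, with wild type at 35.8 ± 6.52 CPM, all 9 pairs overlapping and no line called against wild type. Levels are not compared between genes.

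**Figure D4:**
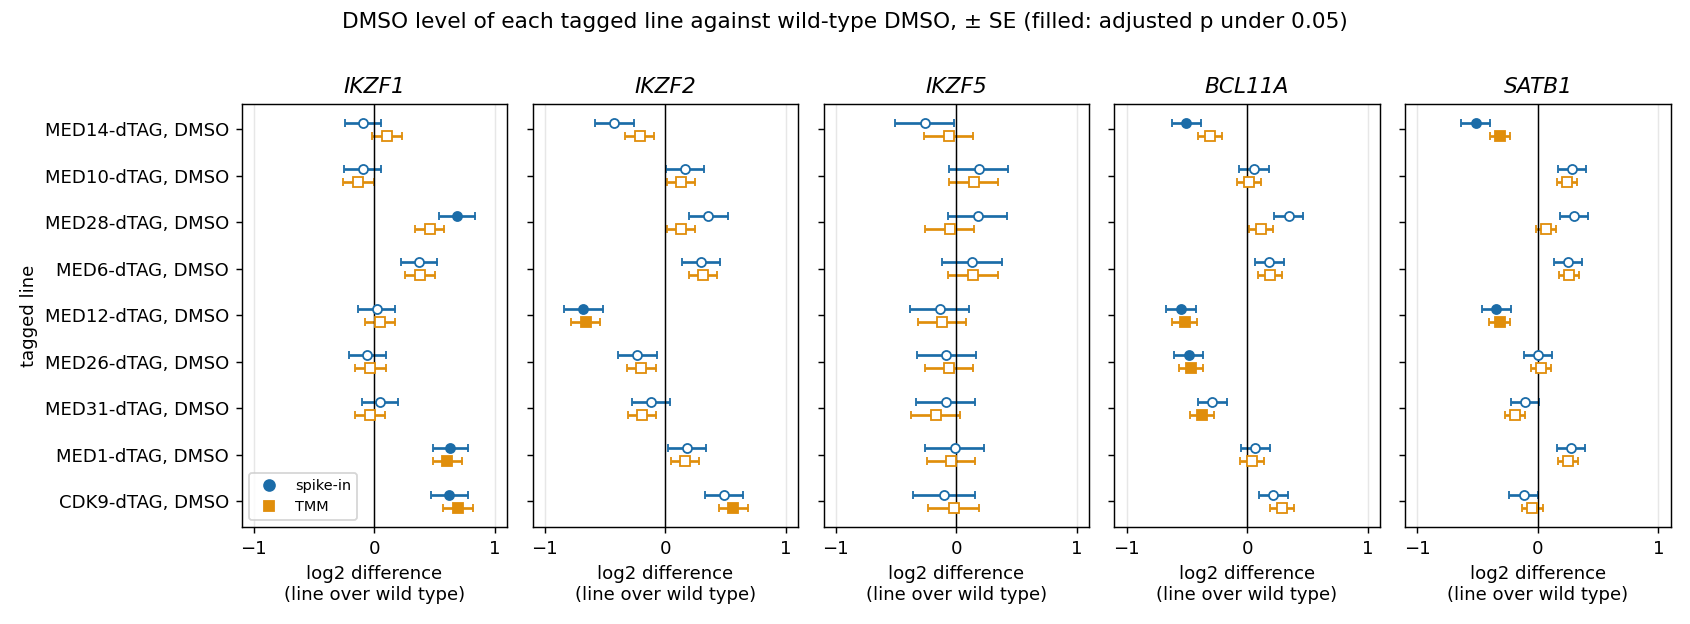
Log2 difference of the DMSO level of each tagged line from wild-type DMSO (± SE) for the 5 genes, on the spike-in scale (circles) and the TMM scale (squares), with called values filled. IKZF1 stands between 0.62 and 0.69 in the MED28, MED1 and CDK9 lines on the spike-in scale, and IKZF2, BCL11A and SATB1 lie below 0 in the MED12 and MED14 lines.

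Over the 22 group means on the TMM scale the genes fell into a close set and 2 others, as a description without p-values, since groups share lines and controls. Pearson's r was 0.93 between BCL11A and SATB1, 0.92 between IKZF2 and SATB1 and 0.88 between IKZF2 and BCL11A, and 0.93, 0.95 and 0.95 over the 19 groups left without CDK9 loss, dBET6 and THAL-SNS-032. IKZF1 had r between 0.68 and 0.70 with these 3 genes (0.59 to 0.69 over 19 groups). IKZF5 had r between 0.33 and 0.58 with the other 4 (-0.09 to 0.38 over 19 groups). Among 10205 genes with a mean of at least 5 CPM, the 3 most alike to IKZF2 were SATB1, FBRSL1 and TCF3 (r of 0.92 each), those most alike to BCL11A were GNL3, DPH2 and RRP1B (0.95 each), and those most alike to SATB1 were RRP1B (0.95), POLR1A (0.95) and AL034397.3 (0.94). For IKZF1 they were MRPL27, ZNF414 and CHTOP (0.84 each). For IKZF5 they were NIPA2 (0.96), ZDHHC5 (0.94) and ARPC5L (0.94), and over 19 groups these values were 0.75, 0.63 and 0.48.

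Paralogs of the 5 genes were examined as well. Of these, IKZF3 had no row. IKZF4 (Eos) averaged 4.94 ± 0.364 CPM with dTAG7 and 13.4 ± 1.87 CPM with DMSO in MED14-dTAG cells (SD, n = 3 each). Its log2 fold change of -1.42 ± 0.30 was called, where all genes had a median of -0.69 and 63.3% were lower. On the TMM scale it was -0.74 and called. In MED10-dTAG cells IKZF4 was called lower on the spike-in scale (-0.86 ± 0.29, 19% of all genes lower) and not on the TMM scale. Of the 3 paralogs tested, 1 was called lower and 1 higher in MED14-dTAG cells on the TMM scale (median 0.46). BCL11B, the T cell paralog of BCL11A, was near the limit of detection in wild-type DMSO cells (0.541 ± 0.612 CPM). It was called in no Mediator line on the spike-in scale. In DMSO-treated MED12-dTAG cells it had 21.7 ± 7.73 CPM, a level picked out after the values were seen.

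Genes of the partner complexes lay near the median of all genes in the MED14 and MED28 lines. Of 15 NuRD genes 12 were tested, and all 12 were called lower in MED14-dTAG cells with a median log2 fold change of -0.73, beside -0.69 for all genes, of which 63.3% were called lower. On the TMM scale 2 of the 12 were called lower and 1 higher, beside 16.6% and 13.4% of all genes. MBD3, a NuRD scaffold subunit, had the lowest value (43.9 ± 2.18 CPM with dTAG7 and 121 ± 19.98 CPM with DMSO, SD, n = 3 each; -1.45 ± 0.15), and MTA3 was at -1.05 ± 0.23. Of 10 other corepressor genes 9 were called lower there with a median of -0.75 (on the TMM scale 2 lower and 1 higher), beside the same shares of all genes, among them CTBP1 (-1.17 ± 0.19) and CTBP2 (-0.95 ± 0.12). In MED28-dTAG cells, where IKZF2, BCL11A and SATB1 were called lower, the NuRD genes had a median of -0.05 and the corepressor genes one of -0.11, beside -0.04 for all genes. After CDK9 loss the 12 NuRD genes were all called lower on the spike-in scale, with a median of -2.40 beside -2.93 for all genes. With TMM 6 of the 12 were called higher and 0 lower there (median 0.44 beside -0.09; 21.1% of all genes higher), 6 higher and 1 lower with dBET6 (18.2% higher) and 5 higher and 0 lower with THAL-SNS-032 (14.1% higher).

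Of 14 globin genes and globin regulators 8 were tested, and HBB, HBA1, HBA2, HBG1, HBZ and KLF1 had no row. In MED14-dTAG cells 4 of the 8 were called lower and 0 higher (edgeR, spike-in scale, where 63.3% of all genes were lower; on the TMM scale 2 lower and 1 higher, where 16.6% and 13.4% were). The 4 included NFIX (-1.21 ± 0.14) and LIN28B, an RNA-binding protein of the fetal programme (-1.12 ± 0.14). HBG2, a fetal globin gene that BCL11A silences in erythroid cells, averaged 1.13 ± 0.290 CPM with dTAG7 and 0.958 ± 0.594 CPM with DMSO in MED14-dTAG cells and was not called in any of the 12 comparisons on the spike-in scale, at levels of few counts. SOX6, which acts with BCL11A on the globin genes, was the 1 gene of the 8 called higher with dBET6 (16.2 ± 10.4 CPM with dBET6 and 2.21 ± 0.895 CPM with DMSO, SD, n = 3 each; 2.87 ± 0.43) and with THAL-SNS-032 (6.10 ± 2.93 CPM, against 2.21 ± 0.895 CPM with DMSO; 1.44 ± 0.49). It is named after its values were seen. On the spike-in scale 3 of the 8 were called lower with each compound, beside 97.1% of all genes with dBET6 and 96.2% with THAL-SNS-032. Called higher were 0.423% of all genes with dBET6 and 0.256% with THAL-SNS-032. The 8 genes had medians of -1.48 with dBET6 and -0.51 with THAL-SNS-032, beside -3.67 and -2.86 for all genes. With TMM 4 were called higher and 2 lower with dBET6, beside 18.2% and 23.2% of all genes (median 1.71 beside -0.10). With THAL-SNS-032 5 were called higher and 0 lower, beside 14.1% and 16% (median 2.263 beside -0.05).

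The strand setting of the authors' counting is not given in the sources used here. Exons of IKZF5 overlap those of PSTK on the opposite strand, and exons of SATB1 overlap those of TBC1D5 on the same strand, so reads in those stretches are uncertain. TBC1D5 averaged 23.7 CPM with dTAG7 and 31.8 CPM with DMSO in MED14-dTAG cells (-0.41 ± 0.18), and PSTK 1.39 CPM with dTAG7 and 4.41 CPM with DMSO (-1.79 ± 0.59). The identity of the cells was checked over the 30 DMSO libraries. Progenitor genes were present, with medians of 105 CPM for GATA2, 120 CPM for TAL1, 60.2 CPM for LMO2, 69.8 CPM for KIT and 30.2 CPM for CD33, while GATA1 (2.52 CPM) and MPO (1.48 CPM) had low medians. The lines differed in these genes: GATA1 ranged up to 64.7 CPM, KIT up to 450 CPM and CD3D up to 51.7 CPM in a library, and the summed myeloid and erythroid genes lay between 937 and 1003 CPM in DMSO-treated MED31-dTAG cells, against 336 to 430 CPM in wild-type cells. Of the B cell genes PAX5 was at 77.8 CPM and EBF1 at 17.5 CPM, but CD79A and CD79B were at 5.35 and 4.70 CPM and MS4A1 at 0.156 CPM. CD3D had a median of 13.6 CPM with CD3E and CD3G at 1.59 and 0.407 CPM, and CD2, CD8A and LCK had no row. The summed B cell genes lay between 35.0 and 45.3 CPM with dTAG7 and between 76.2 and 83.3 CPM with DMSO in MED14-dTAG cells. In MED28-dTAG cells, where BCL11A, IKZF2 and SATB1 were called lower, the same sum lay between 98.03 and 120 CPM with dTAG7 and between 106 and 115 CPM with DMSO. The summed myeloid and erythroid genes (7 of 9 listed had a row) were lower in both lines without overlap: they lay between 139.9 and 148 CPM with dTAG7 and between 357 and 382 CPM with DMSO in MED14-dTAG cells, and between 335 and 373 CPM with dTAG7 and between 418 and 477 CPM with DMSO in MED28-dTAG cells. The same sum also fell without overlap in MED10-dTAG (239 to 255 CPM with dTAG7, against 360 to 373 CPM with DMSO) and MED6-dTAG cells (182 to 225, against 304 to 329 CPM). So it did in MED31-dTAG (705 to 754, against 937 to 1003 CPM) and MED26-dTAG cells (364 to 392, against 415 to 464 CPM). In MED1-dTAG and MED12-dTAG cells the groups overlapped. The part of these genes in the results was not tested.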

How the data were processed

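Transcripts were measured by Quant-seq in 66 libraries of 22 groups, taken from the sample titles. The authors deposited whole read counts per gene and spike-in; among the tools listed in the submitters' processing notes are bedtools 2.26.0, HTSeq 0.6.0 and STAR 2.5.2b, with hg38 as build. The authors' loess-normalized signal values, deposited as a further table, served only as an alternative. Gene symbols came from GENCODE 29.

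The 5 members, the gene lists and the tests were chosen with earlier results of these data known. Library sizes were the spike-in totals rescaled to the geometric mean of the human counts; TMM was fitted alongside. Counts were filtered with filterByExpr and fitted with edgeR 4.0.16 in R 4.3.3 (quasi-likelihood, 22 group means, 44 residual degrees of freedom, Benjamini-Hochberg over all genes, threshold 0.05), after a test on simulated data. CPM are counts scaled this way, and SE is that of the log2 fold change. Similar patterns were ranked by Pearson's r over 22 group means of TMM log2 CPM with a prior count of 2 among genes of at least 5 CPM, and the named list genes are the 2 with the largest called fall in MED14-dTAG cells. Depth was 439261 to 4337368 counts of human genes per library (median 3016290.5). No gene has under 70 counts over the 66 libraries or counts in fewer than 20 of them, so genes seen in fewer libraries are not analysed here.

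The alternatives were TMM, median-of-ratios scaling, other filters, a replicate block, fits on only the libraries compared, DESeq2 1.42.0, limma 3.58.1 on log2 of the loess values plus 1, and each library left out. Replicate letters did not pair the libraries: in no comparison did every pair of libraries with the same letter have a correlation over 0.1. Some genes of the paralog and marker lists are not reported here.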

Additional observations from a re-analysis of the deposited data

Results flagged for a closer look

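The dTAG7 effect in a tagged line was set against that in wild-type cells by a test of the difference itself in edgeR. Of the 45 differences 20 were called. Of all genes 93.9% were called lower in the CDK9 line, 57.1% in the MED14 line and 14.1% in the MED10 line. It was 10.9% in the MED6 line, 1.82% in the MED28 line and 1.62% in the MED12 line. In the CDK9 line the effect differed from that in wild-type cells by -4.00 for IKZF1, -4.26 for IKZF2, -3.38 for IKZF5, -5.02 for BCL11A and -3.73 for SATB1 on the log2 scale. In the MED14 line the differences were -1.40 for IKZF1, -2.31 for IKZF2, -2.16 for BCL11A and -1.60 for SATB1. In the MED10 line they were -2.01 for IKZF2, -1.60 for BCL11A and -1.47 for SATB1, and in the MED28 line -1.51, -1.45 and -1.06 for the same 3 genes. In the MED6 line they were -0.78 for IKZF1, -1.39 for IKZF2, -0.66 for BCL11A and -1.09 for SATB1. Without library A of the dTAG7-treated MED6-dTAG cells those of IKZF1 (-0.58) and BCL11A (-0.54) were no longer called. In the MED12 line the difference was -0.93 for BCL11A. That of SATB1 there was -0.59 and not called, but -0.71 and called without library B of the DMSO-treated MED12-dTAG cells. All 9 lines were set against the same wild-type libraries, and these are fold changes that the listing of the genes had used. On the TMM scale 18 differences were called, 17 of them also on the spike-in scale. Of 12892 genes on that scale, 2971 were called lower in the CDK9 line, 1333 in the MED14 line and 620 in the MED10 line. It was 287 in the MED12 line, 181 in the MED28 line and 84 in the MED6 line.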

How the results depend on the processing

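The 38 calls against DMSO of the same line numbered 35 to 39 under the 8 other settings (TMM, median-of-ratios, no filter, 1 CPM in 3 libraries, replicate block, libraries of the comparison alone, DESeq2, and limma on the loess-normalized table). The 20 called differences from wild-type cells numbered 18 to 24. The 9 called DMSO baselines numbered 8 to 10, except 5 (4 lower and 1 higher) with limma on the loess-normalized table, and the cause was not tested. The log2 fold change of IKZF5 in MED14-dTAG cells was -0.58, but 0.11 with TMM and 0.14 with scaling by median of ratios, which set the bulk of genes equal. With the replicate block 38 calls, 8 baselines and 20 differences were found. The letters were not shown to pair libraries, and every library correlated best with its own letter only in the MED1-dTAG comparison. With each library left out in turn, the calls numbered 36 to 39, the baselines 6 to 9 and the differences 18 to 21. Depth limits IKZF5, with as few as 2 counts in a library.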
